A study of Homo sapiens with 16 samples.

Results

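Interferon-stimulated genes (ISGs) were followed across the cell types of 2 mouse mammary tumors, T22 and T127, by single-cell RNA sequencing. The list held 39 genes, chosen with earlier results of these data known, and 37 of the 39 were among the 32285 gene columns. Mx1 and Mx2, a pair of interferon-induced GTPases that block viral replication, were not analysed here. The level of a gene was its UMIs (unique molecular identifiers, 1 per captured transcript) summed over the cells of a deposited cluster, as counts per 1000000 UMIs of those cells (CPM), and the ISG sum was the same value for all 37 genes together. The pattern of these genes across clusters was the reason for choosing them, so every level below is a description and no test was run.

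Type I interferons are secreted after cells sense viral or misplaced nucleic acid, and they act through the receptor chains Ifnar1 and Ifnar2 and the kinases Jak1 and Tyk2. An activated complex that holds Stat2 and Irf9 then switches on the ISGs, while interferon gamma acts through its own receptor and favours GTPases such as the guanylate-binding proteins. In tumors these genes are used as a sign of a response to interferon, in macrophages, dendritic cells and the malignant cells themselves among others. Whether the cells below had met interferon was not tested.

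Both tumors were derived from mammary tumors of transgenic mice that express the lysophosphatidic acid receptor LPA1 in the mammary epithelium, and both were passaged as tumor pieces in the mammary fat pad of female FVB mice aged 6 weeks. The study used T22 as a sensitive and T127 as a resistant model for olaparib, an inhibitor of poly(ADP-ribose) polymerase (PARP), and asked what separates them. In the long-term experiment, mice carried T22 or T127 on both sides (single strain) or both tumors on opposite sides (co-transplanted). They received vehicle or olaparib (50 mg/kg daily by mouth) for 20 days, and the cells were captured in 8 pools. In co-transplanted mice, T127 was placed about 14 days after T22. In the short-term experiment, T22 and T127 were each treated with vehicle or olaparib for 4 or 8 days, and each model was captured in 4 pools. Mice were assigned to treatment 14 days after transplantation for T22 and 10 days for T127 per the labels, while the study's account of the short-term experiment gives 14 days for both models. Each pool mixed cells of several tumors, and nothing used here ties a cell to its tumor. Vehicle and olaparib, or single-strain and co-transplanted tumors, therefore could not be separated in any value. The labels do not say whether the 4 pools of a short-term model held the same or different tumors, so each model was treated as 1 sample, and the 8 long-term pools are not known to be independent. Pool ranges therefore show the spread between captures only, and the 95% intervals given with levels and ratios cover counting error only.

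The files held 53946 cells. Long-term pools 1, 2 and 3 shared cell barcodes (3939 between pools 1 and 2, 987 between 1 and 3, and 1082 between 2 and 3), and only the deepest copy of each was kept, which left 48824 cells (25723 long-term, 15094 short-term T22, 8007 short-term T127). In the pools as deposited, total UMIs ran from 34755906 to 55600377 and median UMIs per cell from 3105 to 26017, with the deepest cells in the short-term T127 pools. The low medians were those of long-term pools 1 and 2 (3812 and 3105), where 45.9% and 45.5% of the deposited cells were shallower copies. The other long-term pools had medians of 9566 to 11712. Of the 22 deposited clusters, 21 long-term, 17 short-term T22 and 14 short-term T127 clusters had the 50 cells required here, 52 cluster-experiment units in all. Malign_0 and Malign_1 were the malignant clusters of T127 (4878 short-term T127 cells and 0 short-term T22 cells), and Malign_2 and Malign_3 those of T22 (1954 and 0). The labels name the organism as human, although the strain, the genome build (GRCm38) and the gene symbols are all mouse. The deposited cluster names were checked on markers of broad lineages only, and not on markers of T cell, monocyte or macrophage subsets. The monocyte and macrophage marker sum (Itgam, Cd14, Adgre1, Csf1r, Lyz2) was 5406 to 12290 CPM in the long-term monocyte and macrophage clusters. It was 94 to 232 CPM in the 4 malignant ones. CD14-IL1B of short-term T22 stood low on these markers, at 1430 CPM (3276 CPM in short-term T127).

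Plasmacytoid dendritic cells (pDC), regulatory T cells (CD4_Treg-FOXP3) and macrophages held the highest ISG sums in the long-term experiment, and malignant cells, NK.cells and Tgd the lowest. The ranks of pDC and CD4_Treg-FOXP3 rest largely on a few genes, given below, and are not ranks of the list gene by gene. In the long-term experiment the ISG sum was 13650 CPM in pDC (pool range 10310 to 17360, 8 pools), 8942 CPM in CD4_Treg-FOXP3 (5577 to 16160, 7 pools with at least 10 cells), 7638 CPM in Macro-M2 (7047 to 8092) and 6196 CPM in CD16-CDKN1C monocytes (5556 to 6840). Macro-others (5670 CPM) and Macro-M1 (5603 CPM) followed, and Endo.cells and the inflammatory fibroblasts (i_CAF) lay between, at 4715 and 4311 CPM. Malign_0 reached 2335 CPM, Malign_3 2176 CPM, Malign_1 1814 CPM and Malign_2, the lowest of the 21, 1629 CPM. Along this order, neighbouring clusters overlapped in their pool ranges with 1 exception, Macro-M2 above CD16-CDKN1C. Short-term T127 had nearly the same order at the top, with CD4_Treg-FOXP3 at 9932 CPM (7260 to 12270, 4 pools), pDC at 9532 CPM (9004 to 10070), CD16-CDKN1C at 6319 CPM and Macro-M2 at 6251 CPM. Its lowest clusters were Malign_0 (1255 CPM) and Malign_1 (1090 CPM). In short-term T22, where pDC and CD4_Treg-FOXP3 had fewer than 50 cells, Macro-M2 was highest at 4005 CPM (3390 to 4334) and Malign_2 lowest at 687 CPM (659 to 723).

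**Figure D1:**
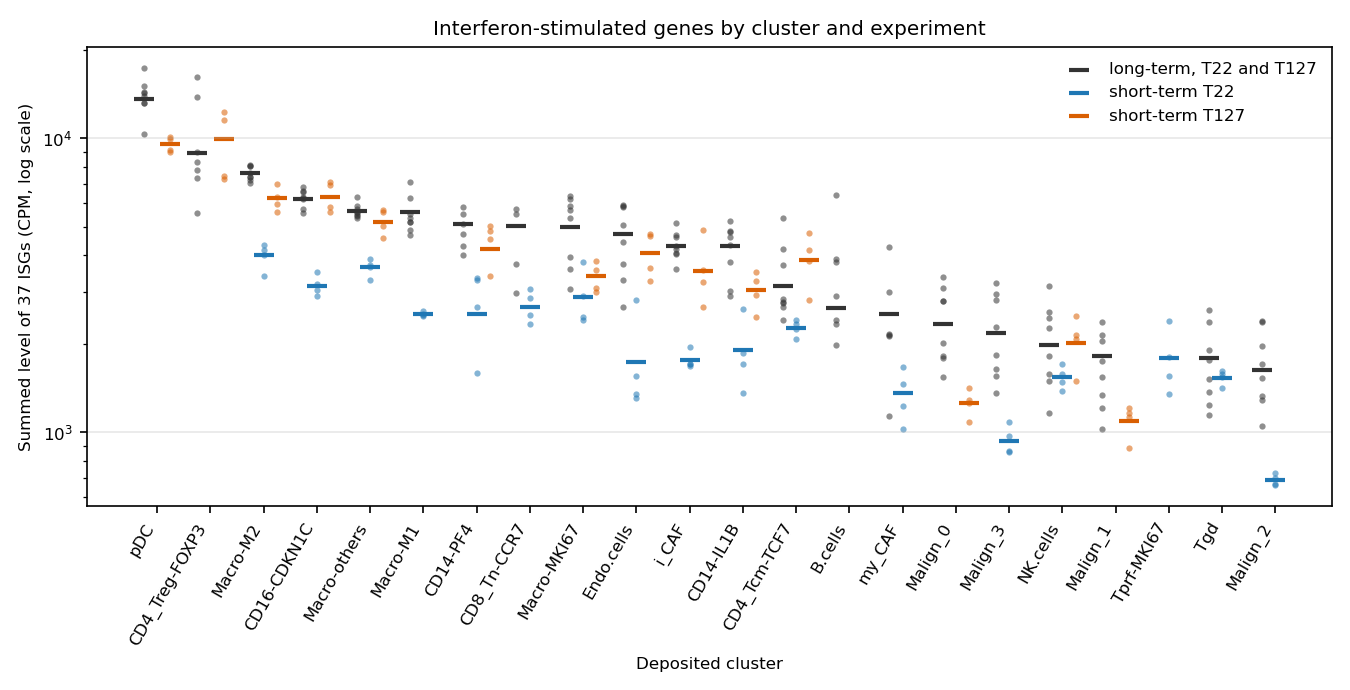
Summed level of the 37 ISGs (CPM, log axis) in each deposited cluster, with bars for all cells of the long-term (black), short-term T22 (blue) and short-term T127 (orange) experiments and points for single pools of at least 10 cells. pDC, CD4_Treg-FOXP3 and Macro-M2 stand at the left and the malignant clusters toward the right, and each short-term T22 bar lies under the bars of the other experiments in its cluster.

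A few genes made up most of this sum. Ifi27l2a, a small hydrophobic protein induced by interferon, gave 29.5% of all ISG UMIs, Bst2 (tetherin, which holds budding viruses at the cell surface) 13.4%, Isg15 (a ubiquitin-like protein attached to other proteins) 12.3% and Irf7 (the factor that amplifies type I interferon genes) 6.29%. At the other end, Ifi47 had 58 UMIs and Igtp 734 UMIs in all cells. The sum thus took its order largely from these leading genes, and single members had patterns of their own.

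Effector genes differed in where they were highest. Bst2, which is also a pDC surface marker, reached 3119 to 7388 CPM over the long-term pDC pools (6198 CPM in all) and 3295, 5092, 5873 and 4782 CPM in the 4 short-term T127 pools, against a median of 420 CPM over the 21 long-term clusters. Ifi27l2a was highest in CD4_Treg-FOXP3, at 6006 CPM long-term and 7161 CPM in short-term T127, and lowest in Endo.cells in every experiment, at 115, 20.7 and 56.6 CPM in long-term, short-term T22 and short-term T127. It thus made up most of the CD4_Treg-FOXP3 ISG sum (8942 CPM long-term and 9932 CPM in short-term T127). Bst2 was the largest part of the long-term pDC sum (13650 CPM). Sums without these genes are not given by cluster. Endothelial cells (249 long-term, 88 short-term T22 and 118 short-term T127 cells) were not low on every member. They were the highest cluster for 10 members long-term and for 9 in short-term T127, but for 4 in short-term T22, where Macro-M2 was highest for 13. The long-term ones included Ifi44 (131.5 CPM), Xaf1 (207 CPM, a regulator of apoptosis), Ifi35 (155 CPM), Parp14 (129 CPM, a mono-ADP-ribosyltransferase) and Iigp1. The share of all genes that peak in these clusters is not given, so the counts of members are not read as a trait of ISGs. Trim30a, a ubiquitin ligase that restrains Toll-like receptor signalling, peaked in pDC (382 CPM long-term and 489 CPM in short-term T127), and Rtp4, a chaperone of membrane receptors, in Macro-M2 (167 CPM) and, in short-term T127, in CD16-CDKN1C (148.5 CPM).

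The antiviral group of Isg15, the IFIT genes, Rsad2, Cmpk2 and Usp18 was highest as a sum in Macro-M2 in each experiment (1796, 636 and 903 CPM in long-term, short-term T22 and short-term T127), although Cmpk2 alone peaked in long-term Endo.cells and Usp18 in long-term pDC. The IFIT proteins bind viral RNA, Rsad2 (viperin) and its neighbour Cmpk2 act on nucleotides, and Usp18 removes Isg15 from proteins and damps receptor signalling. Isg15 peaked in Macro-M2 in all 3 experiments, at 1024 CPM long-term, 269.6 CPM in short-term T22 and 453.5 CPM in short-term T127. Ifit2 ranged from 11.7 CPM in Malign_2 to 184 CPM in Macro-M1, and Rsad2 from 3.72 CPM in Malign_1 to 227 CPM in Macro-M1. Ifit1 alone of the group was highest in a malignant cluster, Malign_0, at 126.8 CPM (77.2 to 193.5 over 8 pools). Ifit3 and Ifit3b are near-identical copies whose reads may have been shared or dropped in counting, so their split (peaks of 206 and 65.1 CPM, both in CD8_Tn-CCR7) is uncertain.

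Among the oligoadenylate synthetases, which make the messenger that activates RNase L, Oasl2 and Oas1a, the pair with most UMIs, both peaked in Macro-M2 long-term (77.8 and 77.7 CPM) while Oas2 and Oas3 stayed at or below 8.68 CPM in each long-term cluster. Nucleic acid sensors divided by cell type. Zbp1, a sensor of Z-form nucleic acid that can start necroptosis, was highest in CD8_Tn-CCR7 (193 CPM long-term and 95.9 CPM in short-term T22) and in CD4_Treg-FOXP3 of short-term T127 (176 CPM). Ddx58 (RIG-I, a sensor of viral RNA ends) was highest in Malign_3, at 93.6 CPM long-term and 108 CPM in short-term T22. Ifi205, of the HIN-200 family of DNA-binding proteins, was highest in i_CAF and CD14-IL1B in each experiment, at 483 CPM in long-term i_CAF (324.5 to 569 over 8 pools) and 250 CPM in short-term T22 CD14-IL1B, the cluster that stood low on monocyte markers. The other fibroblast cluster, my_CAF, had 4.04 CPM long-term, and Ifi205 was under 1 CPM in 6 of the 21 long-term clusters. Ifi204 of the same family also peaked in i_CAF (135.5 CPM long-term), and reads of these related genes may not be fully separable.

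Of the transcription factors, Irf7 was a pDC gene, as is known for cells that can release type I interferon quickly. It ranged from 1034 to 2619 CPM over the 8 long-term pDC pools and from 558 to 875 CPM over the 4 short-term T127 pools, while Macro-M2 held 383 to 742 CPM in the long-term pools. Irf9 and Stat2, partners in the complex that reads interferon response elements, varied less, from 15.5 to 57.1 CPM and from 9.06 to 93.7 CPM over the long-term clusters, with pDC again highest. The GTPases kept apart from this order. Gbp2, which coats intracellular pathogens, was highest in Endo.cells (113 CPM) long-term and Gbp3 in Macro-M1 (125 CPM), whereas pDC had 1.08 CPM of Gbp2 and 4.31 CPM of Gbp3. Iigp1, an immunity-related GTPase, was a gene of Endo.cells (234, 224 and 178 CPM in long-term, short-term T22 and short-term T127) and of i_CAF in short-term T22 (373 CPM).

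Across the 52 units, the members whose log2(CPM + 1) followed the ISG sum most closely were led by Irf7 (Pearson r = 0.834), while Gbp2 (r = -0.003) and Ddx58 (r = -0.325) did not follow it. Outside the list, the closest genes among 12823 included Sin3b, Cyp4f13, H2-M3, Trim30d, Rap1a, Srd5a3, Npc2, Ocel1 and Il10rb, with r from 0.787 to 0.718. None of these was on the list of other interferon-induced genes. Each member is itself part of the ISG sum. The points also share pools, depth and cell types, so these values describe likeness and nothing more.

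The interferon genes themselves were barely captured. Ifna1, Ifna2, Ifna4 and Ifna5 had no UMI in any experiment (which allows up to 0.0143 CPM in short-term T127 and 0.0180 CPM in short-term T22, for counting error only), Ifna13 had 1 UMI, and Ifnb1 had 50 UMIs long-term (6.46 CPM in pDC, its highest), 12 in short-term T22 and 4 in short-term T127. Interferon gamma (Ifng) had 431 UMIs long-term and 2755 in short-term T22, with NK cells highest in both (122 and 164 CPM), and 90 UMIs in short-term T127, with CD4_Treg-FOXP3 highest (43.2 CPM) and NK.cells at 39.0 CPM. Of the type I interferon receptor chains, Ifnar2 was highest in pDC long-term (509 CPM) and lowest in B.cells (32.9 CPM), and Ifnar1 ran from 10.9 CPM in Malign_2 to 70.8 CPM in Macro-M1.

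ISGs were lower in the malignant cells of T22 than in those of T127 in the short-term experiment, with some members nearly missing from T22, others lower, level or within 2-fold, and a pair that was higher there. The ISG sum was 711 CPM in T22 (683 to 741 over 4 pools) and 1179 CPM in T127 (988 to 1317 over 4 pools), a ratio of 0.603 (95% interval 0.596 to 0.610), and the pool ranges did not overlap. Of the 28 members with a mean of at least 5 CPM over both groups, 20 were at least 2-fold lower in T22 and 2 at least 2-fold higher on the log2(CPM + 1) scale, with a median log2 ratio of -1.50. The lower members numbered 11 with a pseudocount of 10 CPM and 9 at a minimum mean of 20 CPM. Among all 9958 genes so filtered, 20.4% were lower and 19.1% higher, with a median of -0.09. A gene high in 1 model and missing in the other passes this filter and must differ, so the counts are read beside the share of all genes only.

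Genes lower in T22 malignant cells came from several roles, and some were close to missing there. Trim30a was 3.62, 1.03, 3.39 and 2.19 CPM in the 4 Malign_2 pools and 60.7, 72.8, 74.9 and 56.2 CPM in the Malign_0 pools, and in all malignant cells 2.74 against 60.3 CPM (ratio 0.0454, 0.0383 to 0.0535). Ifi204 was 0.321 against 24.8 CPM, Ifi203 0.567 against 15.3 CPM and Oas1a 0.737 against 12.5 CPM. The same held for Ifi211 of the same family, from the list of other interferon-induced genes (0.170 against 17.3 CPM). Irf7 was 13.2 CPM in T22 (11.1 to 17.0) and 58.8 CPM in T127 (52.7 to 61.7), Isg15 48.4 and 137 CPM, Usp18 6.59 and 36.1 CPM, and Ifit1 6.84 and 53.7 CPM. The ranges of the 4 pools did not overlap for any of these genes.

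Ddx58 and Ifi27l2a went the other way. Ddx58 was 73.6, 77.02, 75.6 and 67.4 CPM in the Malign_2 pools and 28.0, 28.3, 31.6 and 28.8 CPM in the Malign_0 pools, and 2.86-fold higher in all T22 malignant cells (2.74 to 2.98). Ifi27l2a was 204 CPM in T22 and 62.0 CPM in T127 (3.29-fold, 3.20 to 3.37). Irf9 was level, at 14.2 CPM in both. Among 29 of the 50 other interferon-induced genes that passed the filter, 10 were at least 2-fold lower in T22 and 3 higher, the last being the chemokine Cxcl10 (42.4 against 5.70 CPM), the cytidine deaminase Apobec3 (18.6 against 4.57 CPM) and the membrane protein Ifitm3 (2751 against 1316 CPM).

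Several of these genes also stood apart in the long-term experiment, where the sums did not. The ISG sum was 1849 CPM in T22 malignant cells (1165 to 2707 over 8 pools) and 2130 CPM in T127 (1407 to 2776), a ratio of 0.868 (0.861 to 0.876) with overlapping pools. This ratio joins pools of opposite direction, since both T127 clusters stood above both T22 clusters in pools 1 to 4 and below them in pools 5, 6 and 8, as the values by pool further on show. Within the pools the ratio was 0.533, 0.594, 0.593, 0.512, 1.496, 1.485, 1.384 and 1.462 in pools 1 to 8, with a mean log2 ratio of -0.15 ± 0.75 (SD, 8 pools), so T22 was lower in 4 pools and higher in 4. Without pools 1 and 2 the log2 ratio went from -0.20 to -0.02, without pool 4 to -0.06 and without pool 6 to -0.32, and for Malign_3 over Malign_1 alone it was 0.26, the opposite direction. Of 30 members, 11 were at least 2-fold lower in T22 (4 with a pseudocount of 10 CPM, 5 at a minimum mean of 20 CPM) and 2 higher, while 17.7% of 9296 genes were lower and 17.9% higher. Trim30a (5.29 against 57.8 CPM), Ifi204 (1.27 against 33.3 CPM) and Ifi203 (0.483 against 10.4 CPM) were again nearly missing, and Ddx58 (78.0 against 21.4 CPM, 3.64-fold) and Ifi27l2a (517 against 213 CPM, 2.43-fold) were again the pair that was higher. Of this higher pair, only Ddx58 had pools apart. Ifi27l2a was 285, 391, 449, 335, 742, 697, 530 and 792.5 CPM in Malign_2 of pools 1 to 8 and 324, 354, 358, 256, 122, 127.3, 135 and 150 CPM in Malign_0, lower in Malign_2 in pool 1 and furthest apart in pools 5 to 8. Gbp2 was 15.2 CPM in T22 (11.6 to 17.2) and 45.6 CPM in T127 (34.9 to 59.0).

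Outside the malignant cells, the ISG sum was lower in T22 than in T127 in each of the 10 clusters with at least 50 short-term cells in both models. The ratio was smallest in Endo.cells (0.428, 0.403 to 0.454), i_CAF (0.496) and CD16-CDKN1C (0.498), and closest to 1 in Macro-MKI67 (0.850), NK.cells (0.765) and Macro-others (0.700). The pools of both models overlapped in CD14-IL1B, Macro-MKI67 and NK.cells and were apart in the other 7. The clusters of a model come from the same tumors and captures, so these 10 values are not independent.

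As a share of the members tested, those at least 2-fold lower in T22 were most frequent in Endo.cells, CD16-CDKN1C and i_CAF. In Endo.cells 22 of 32 members were lower in T22 and none higher, where 5.32% of all genes were lower and 6.48% higher. In CD16-CDKN1C 23 of 34 were lower and 2 higher (12.5% and 5.95% of all genes), and in i_CAF 17 of 31 were lower and 1 higher (5.94% and 8.25%). CD14-PF4 had 16 lower and 4 higher of 32 (9.98% and 12.4%), from 66 cells a model. CD4_Tcm-TCF7 had 13 lower and none higher of 32 (7.12% and 6.67%). Fewer members passed 2-fold in the rest. Macro-M2 had 5 lower and 2 higher of 34 (7.14% and 5.71%), Macro-others 6 and 1 of 33 (10.4% and 5.77%), CD14-IL1B 6 and 1 of 32 (8.14% and 3.77%) and NK.cells 4 and 1 of 31 (3.81% and 6.14%). Macro-MKI67, proliferating macrophages, was the exception with 1 lower and 5 higher of 33 (6.99% and 6.46%). Median log2 ratios of the members ran from -1.4 in Endo.cells to -0.22 in Macro-MKI67. In Macro-M2 the median was -0.65, against -0.08 for all genes. All T22 pools lay below all T127 pools for 22 members in Macro-M2 and above them for 3, and for 11 and none in Endo.cells. The share of all genes with pools apart is not given.

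Irf7 was lower in T22 in all 10 clusters. It was 10.4, 60.1, 5.80 and 3.66 CPM in the T22 Endo.cells pools and 209, 242, 262 and 328 CPM in the T127 pools, a ratio of 0.0736. Without T22 pool 2, which also stood apart in the ISG sum of these cells, the T22 level was 6.27 CPM and the ratio 0.0252. In NK.cells Irf7 was 65.4 against 89.9 CPM. In Macro-M2 it was 237, 161, 94.99 and 129 CPM in T22 and 395, 373, 375 and 350 CPM in T127, with no overlap. Isg15 was lower in all 10 clusters as well, with ratios from 0.293 in i_CAF (110 against 375 CPM) to 0.880 in Macro-MKI67, where the pools overlapped.

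Some GTPases were higher in T22, chiefly Gbp2 and Gbp3 in macrophages and Iigp1 in i_CAF. Gbp3 was 119, 133, 142 and 141 CPM in the T22 Macro-M2 pools and 40.7, 28.2, 38.8 and 27.9 CPM in the T127 pools, 3.96-fold higher (3.56 to 4.41). Gbp2 was 126, 162, 117 and 94.96 CPM against 51.5, 44.0, 48.9 and 32.5 CPM in the same cells, 2.83-fold (2.57 to 3.13). All T22 pools stood above all T127 pools for both genes. In Macro-MKI67, Gbp3 was 4.90-fold and Gbp2 4.86-fold higher in T22, and Gbp3 was 4.29-fold higher in Macro-others and 3.47-fold in CD16-CDKN1C. The summed GTPase group was 1.57-fold to 4.51-fold higher in T22 in the 6 clusters named as monocytes or macrophages. These include CD14-IL1B, which stood low on monocyte markers in T22. The group was 2.67-fold higher (2.39 to 2.99) in i_CAF. In i_CAF the sum was mostly Iigp1, at 311.5, 345.5, 369 and 459 CPM in T22 and 75.4, 47.1, 91.9 and 92.4 CPM in T127. Other GTPases went the opposite way in the same cells, with Gbp3 lower in T22 in i_CAF (14.5 against 43.6 CPM) and Iigp1 lower in CD16-CDKN1C (8.65 against 41.5 CPM), in both cases with pools apart. In Endo.cells, NK.cells and CD4_Tcm-TCF7 the group was below 1 (0.765, 0.842 and 0.858) with overlapping pools. Ifng, which is known to induce these GTPases, was 164 CPM in the NK.cells of T22 and 39.0 CPM in those of T127. Its part in the GTPase levels was not tested. The model, the capture, the depth and the time from transplantation to treatment cannot be told apart in any of these ratios.

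**Figure D2:**
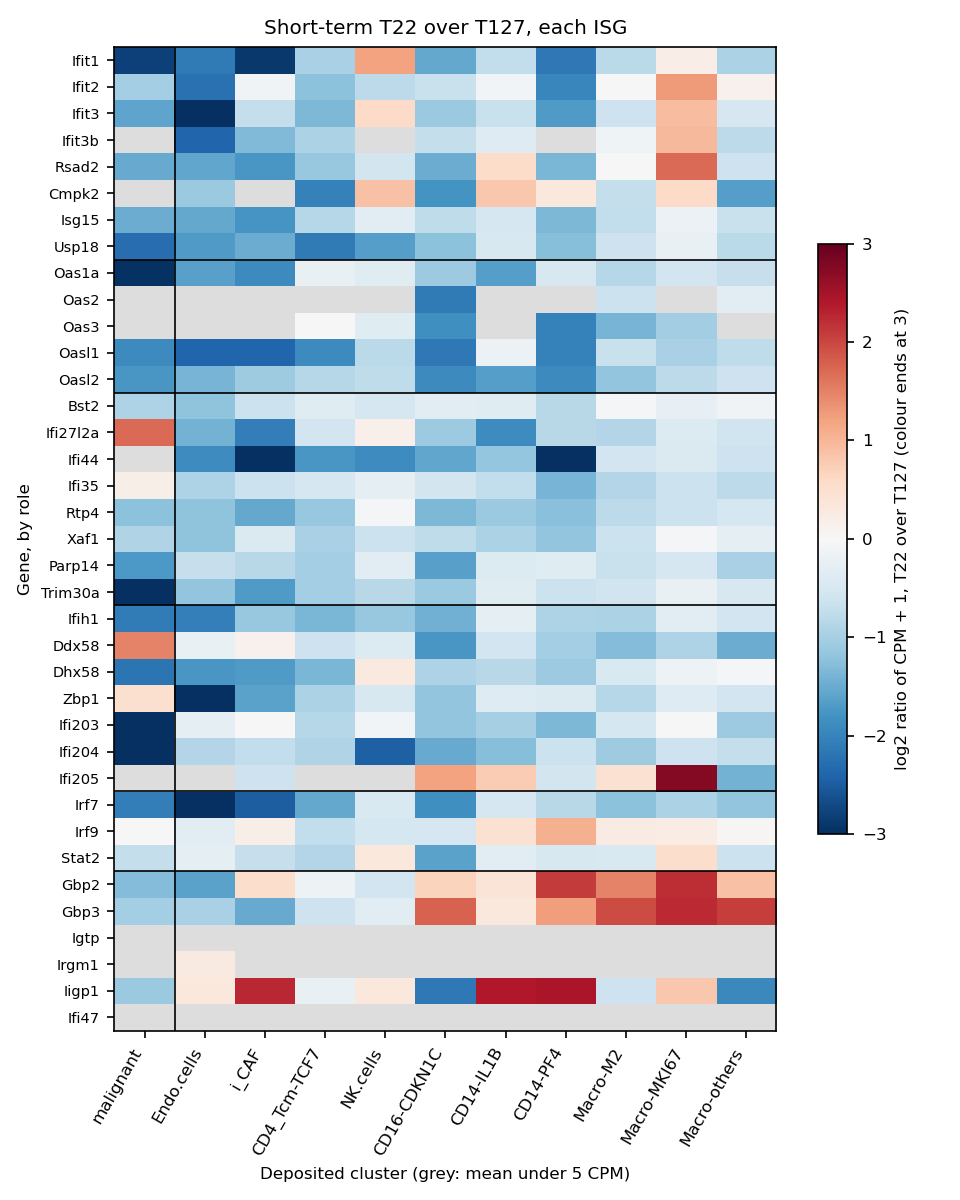
Log2 ratio of CPM + 1, short-term T22 over T127, for each ISG (rows, grouped by role with lines between groups) in malignant cells (first column) and the 10 non-malignant clusters, with blue lower and red higher in T22 and grey for a mean under 5 CPM. Blue fills most of the map. Red marks Gbp2 and Gbp3 in macrophages, Ddx58 and Ifi27l2a in malignant cells, and Iigp1 in i_CAF and the CD14 clusters. For Iigp1, all T22 pools stood above all T127 pools in i_CAF only.

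Malignant cells of both models held more ISG UMIs in the long-term than in the short-term experiment. The ratio of the ISG sum was 1.86 in Malign_0 (2335 against 1255 CPM, interval 1.85 to 1.87), 1.66 in Malign_1 (1814 against 1090 CPM), 2.37 in Malign_2 (1629 against 687 CPM, 2.34 to 2.41) and 2.34 in Malign_3 (2176 against 931 CPM, 2.27 to 2.41). Long-term pools lay above all short-term pools in each cluster except Malign_1, where 1028 to 2362 CPM met 880 to 1212 CPM. The median member had a log2 ratio of only 0.25 in Malign_0 and 0.17 in Malign_1 (0.89 and 0.73 for the sum), against 1.01 in Malign_2 and 0.91 in Malign_3. The median log2 ratio of all genes was -0.32 to -0.37 in these 4 comparisons, so a member with no change in log2 ratio stood above the typical gene. The experiments also differed in capture, depth and the mixture of treatments, which cannot be told apart from time.

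At least 2-fold higher in the long-term cells were 8 of 30 members in Malign_0 (2.43% of all genes), 7 of 31 in Malign_1 (2.37%), 10 of 20 in Malign_2 (1.1%) and 11 of 24 in Malign_3 (1.5%). At a minimum mean of 20 CPM the Malign_1 and Malign_3 counts were 4 and 6, and with a pseudocount of 10 CPM the Malign_1 count was 4. Lower by as much was 1 member in Malign_0 (18.2% of all genes), 1 in Malign_1 (18.5%) and none in Malign_2 (10.3%) or Malign_3 (14.9%). That single gene was Parp14 in both T127 clusters (20.2 against 42.0 CPM in Malign_0 and 16.3 against 33.9 CPM in Malign_1), which sat just past the limit at log2 ratios of -1.02 and -1.01.

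Isg15, Irf7, Ifi27l2a and Xaf1 were among the members higher in all 4 clusters. Isg15 was 368 to 719.5 CPM over the 8 long-term Malign_0 pools, with a median of 515 CPM, and 100, 141, 171 and 149 CPM in the 4 short-term pools, 3.72-fold. In Malign_2 it was 282 against 48.0 CPM (5.88-fold) and in Malign_3 349 against 51.7 CPM (6.76-fold). Irf7 was 181 against 58.9 CPM in Malign_0 and 58.7 against 11.5 CPM in Malign_2 (5.12-fold), and the long-term pools stood above the short-term pools in all 4 clusters. Ifi27l2a was 215 against 61.4 CPM in Malign_0 and 498.5 against 206 CPM in Malign_2, and Xaf1 was 123 against 50.2 CPM and 75.2 against 22.9 CPM, again with no overlap.

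Not all ISGs followed. Ddx58, Stat2, Gbp2 and Ifi203 were between -0.55 and 0.14 in log2 ratio in the clusters where they passed the filter, a band that holds the median of all genes. Rsad2 and Ifit2 differed between malignant clusters, with log2 ratios of -0.11 and -0.38 in Malign_0 and 2.53 and 0.97 in Malign_3, although the Malign_3 values rest on 11 and 34 short-term UMIs and the pools overlapped. The summed GTPase group was 1.01-fold (0.979 to 1.04) in Malign_0 and 0.971-fold (0.902 to 1.04) in Malign_2. Among the other interferon-induced genes 1, 0, 2 and 1 were at least 2-fold higher in Malign_0 to Malign_3, of 29, 29, 22 and 28 that passed, and Trim25, Adar and Znfx1 were lower in both T127 clusters.

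**Figure D3:**
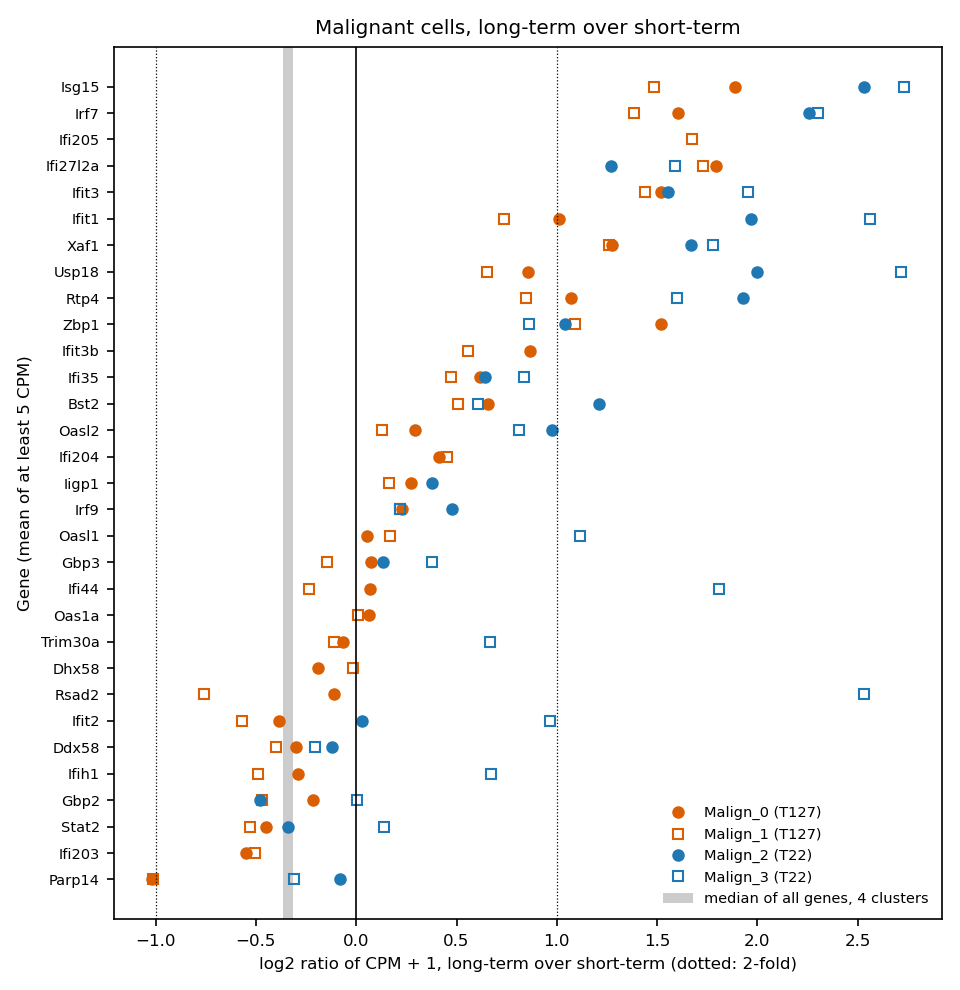
Log2 ratio of CPM + 1, long-term over short-term, for each ISG with a mean of at least 5 CPM in the malignant clusters of T127 (orange) and T22 (blue), with dotted lines at 2-fold and a grey band over the medians of all genes. Isg15, Irf7, Ifi27l2a, Ifit3 and Xaf1 stand past 2-fold in all 4 clusters, and Ddx58, Stat2 and Gbp2 lie near the grey band.

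The same members were also followed over every cluster with 50 cells in both experiments, the malignant clusters above included. Over the 16 such clusters of the long-term and short-term T22 experiments (2 of them malignant), Isg15, Irf7, Xaf1, Usp18, Rtp4 and Ifit3 were higher long-term in all 16, with median log2 ratios of 1.97, 1.89, 1.68, 1.75, 1.35 and 1.63. Over the 14 clusters shared with short-term T127 (2 of them malignant) the same genes were higher in 14, 13, 14, 12, 12 and 13, with smaller medians of 1.21, 0.86, 0.90, 0.48, 0.59 and 1.20. Ifi27l2a was higher in 16 of 16 clusters against short-term T22 and in 10 of 14 against short-term T127 (medians 0.87 and 0.29). Other members followed less, in the same order of comparisons. Stat2 was higher in 4 of 16 and 1 of 14, Gbp2 in 4 of 16 and 6 of 14, and Ddx58 in 9 of 16 and 3 of 14. Ifi203 was higher in 3 of 14 and 1 of 14. Shares of all genes are not given for these clusters. Non-malignant long-term clusters hold cells of both models, so these ratios also carry the difference between T22 and T127. Parp14 was lower long-term than in short-term T127 in all 14 clusters (median -1.02), and Trim30a in all 14 (median -0.34). Against short-term T22, Trim30a was higher long-term in 14 of 15 clusters (median 0.28) and Parp14 in 5 of 16 (median -0.28).

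Within the long-term experiment the malignant clusters of T22 and T127 moved apart by pool. The ISG sum in Malign_0 was 2791, 2802, 3382, 3088, 1543, 2014, 1809 and 1782 CPM in pools 1 to 8, and in Malign_3 it was 1360, 1645, 1834, 1550, 2276, 3213, 2951 and 2815 CPM. Malign_1 was 1542, 2039, 2139, 2362, 1028, 1336, 1209 and 1739 CPM, and Malign_2 1051, 1325, 1531, 1287, 1966, 2372, 1710 and 2382 CPM. In each of pools 1 to 4 both T127 clusters stood above both T22 clusters, and in pools 5, 6 and 8 both T22 clusters stood above both T127 clusters. In pool 7 Malign_0 fell between Malign_2 and Malign_3.

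Single members showed it too. Irf7 in Malign_0 was 311, 225, 274, 273, 108, 117, 108 and 104 CPM in pools 1 to 8, while in Malign_3 it was 96.1, 120, 135, 120, 169, 197, 175 and 155 CPM. Isg15 in Malign_3 was 151, 221, 250, 182, 395.5, 589, 557.5 and 505 CPM, and Rsad2 was 3.90, 1.32, 1.94, 0.424, 46.4, 21.8, 21.0 and 35.3 CPM. Macrophages did not share this split as a sum (Macro-M2 7047 to 8092 CPM in all 8 pools), yet Irf7 there was 742, 697, 705, 704.5, 458, 462, 433 and 383 CPM and Isg15 in i_CAF 641, 704.5, 765, 972, 354, 435, 458 and 323 CPM. Malign_1 was 9.67% to 10.9% of the cells of pools 1 to 4 and 3.32% to 4.61% in pools 5 to 8, and B cells were 0.152% to 0.811% and 1.62% to 2.50%. The labels do not say which tumors, treatments or transplants each pool held, and the part of these in the levels was not tested. Bst2 was low in pool 5 in Malign_0 (160 CPM, next 311.5), Macro-M2 (406 CPM, next 614.5) and pDC (3119 CPM, next 5632), and in short-term T127 pool 1 was the low one (157 CPM in Malign_0, next 243).

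**Figure D4:**
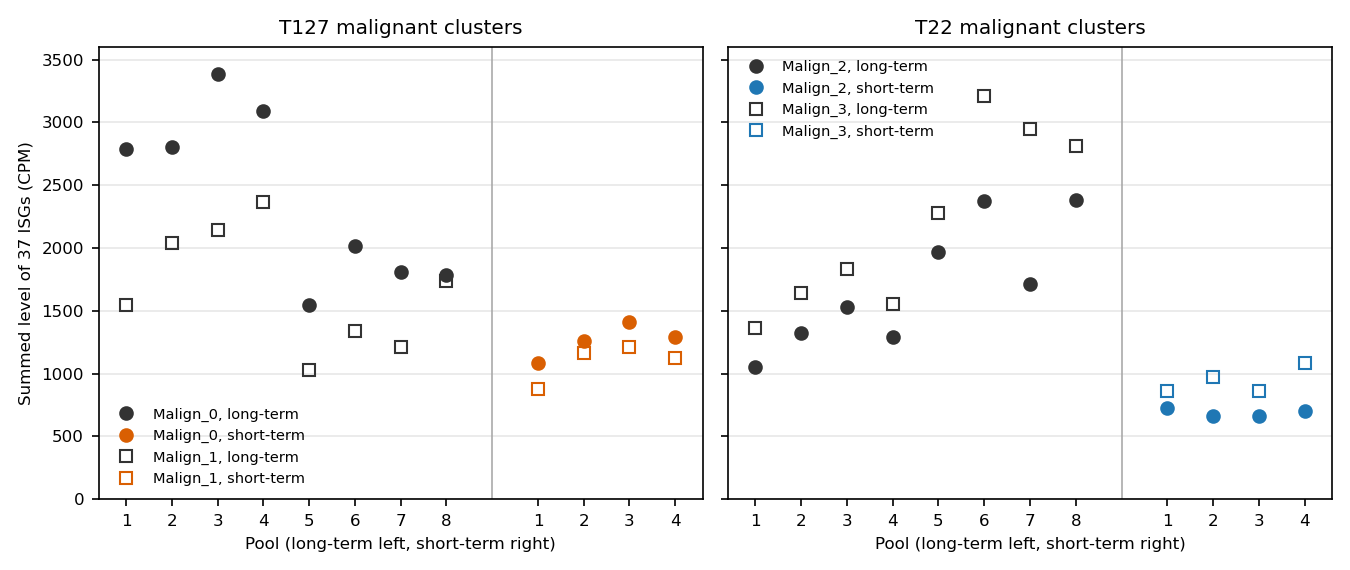
ISG sum (CPM) in each long-term (left of the line) and short-term (right of the line) pool for the malignant clusters of T127 (left panel) and T22 (right panel). Long-term Malign_0 ran from 1543 to 3382 CPM with its highest values in pools 1 to 4, Malign_3 from 1360 to 3213 CPM with its highest in pools 5 to 8, and short-term pools stayed under 1450 CPM.

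ISG UMIs were spread unevenly over single cells. After each cell was thinned to 3000 UMIs, so that depth did not add to the spread (cells below that were left out), the variance of the ISG sum over cells was 20.0 times its mean in long-term Malign_0 (13.9 to 25.8 over pools, 2809 cells), 28.0 times in Macro-M2 (20.4 to 35.6, 3510 cells), 10.7 times in pDC (160 cells) and 41.9 times in Endo.cells (140 cells, with 109 left out), where an even Poisson draw gives 1. The median Malign_0 cell had 3 ISG UMIs and the highest 131, and the top 10% of cells held 48.7% of the ISG UMIs against 16.8% for a Poisson count of the same mean. In pDC that share was 20.7% against 12.8%, with a median of 38 ISG UMIs a cell. In short-term malignant cells the variance was 11.1 times the mean in Malign_0 and 5.20 times in Malign_2, at lower means. This ratio grows with the mean, and the top 10% of cells held 46.5% of the ISG UMIs in short-term Malign_0, close to the long-term share, so the ratios are not read as a difference in evenness.

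Which genes drove the unevenness differed. Isg15 in Malign_0 was seen in 44.2% of thinned cells where an even draw gives 81.8%, and Ifi27l2a in 22.4% against 54.2%. No cell type is known to lack these genes, and the lowest shares over the long-term clusters at this fixed depth were 24.3% for Isg15 (Tgd) and 17.1% for Ifi27l2a (Endo.cells, 11.3% to 24.4%), so for Ifi27l2a the share in Malign_0 lay within the interval of the lowest cluster. Shares of cells with a UMI are not read as cells that express a gene, and the part of free RNA was not tested. Xaf1 in the same cells was close to even, in 28.3% against 32.3%. Rsad2 had the highest variance over mean of the members in Macro-M2 (16.2), and was seen in 12.0% of cells against 47.0%, with 96.8% of its UMIs in the top 10% of cells.

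Cells were counted as high at 10 or more UMIs of the antiviral group after thinning, a limit chosen with the values in view. That group held Isg15, the IFIT genes, Rsad2, Cmpk2 and Usp18. High cells formed 15.9% of long-term Macro-M2 (14.7% to 17.1%, exact binomial interval), 7.65% of Malign_0, 4.74% of Malign_1, 2.76% of Malign_3 and 2.29% of Malign_2. Short-term shares were 2.15% in T127 Malign_0 and 0.288% in T22 Malign_2 (5 of 1736 cells), and 0 of 218 cells in T22 Malign_3, which allows a share of up to 1.38%. The other 29 members were 5.31-fold higher in the high Malign_0 cells than in the rest of that cluster (5.12 to 5.50) and 2.44-fold in the high Macro-M2 cells, and in short-term T22 8.30-fold in NK.cells. Within Malign_0 the largest differences were in Ifi44 (17.3-fold), Iigp1 (15.1-fold), Ifi205 (13.41-fold) and Ifih1 (13.38-fold, MDA5, a sensor of long double-stranded RNA), and the smallest in Irf9 (2.62-fold). Full depth was much the same in high and other Malign_0 cells (medians of 18520 and 19910 UMIs), and so were the macrophage markers (85.2 and 94.4 CPM). As the cells were picked on part of the list, these folds describe how the members go together and are not tested.

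**Figure D5:**
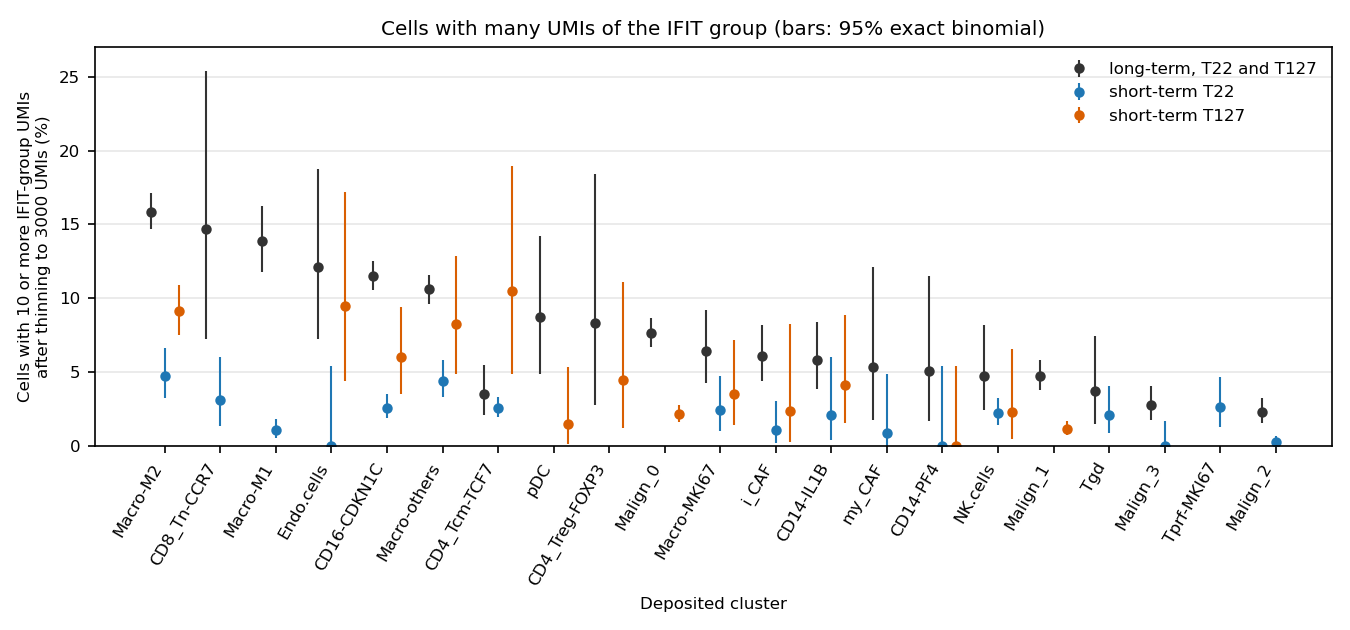
Share of cells (%) with at least 10 UMIs of the antiviral group (Isg15, the IFIT genes, Rsad2, Cmpk2 and Usp18) after thinning to 3000 UMIs, by cluster, for long-term (black), short-term T22 (blue) and short-term T127 (orange), with 95% exact binomial bars that cover counting error only. Long-term Macro-M2 is highest at 15.9%, and long-term Malign_0 (7.65%) stands above short-term Malign_0 (2.15%).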

How the data were processed

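Single cells were captured with the 10x Chromium Single Cell 3' v3.1 kit and hashtag antibodies in 16 pools. The deposited values are whole UMI counts per gene and cell, which the authors made with Cell Ranger 6.0.0 on GRCm38 (submitters' processing notes), introns included, before they filtered cells by genes and mitochondrial share, removed doublets with Scrublet and named Leiden clusters in SCANPY. The deposited cluster names were used, and no further filter or doublet caller was run. The deposited counts are not normalized.

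From the counts, CPM was summed UMIs of a cluster per 1000000 UMIs, with exact Poisson intervals, exact conditional binomial intervals for ratios and log2 ratios with a pseudocount of 1 CPM, computed with scipy 1.17.1, pandas 2.3.3 and numpy 2.4.6 under Python 3.11.15 and drawn with matplotlib 3.10.9. Clusters needed 50 cells and pools in a range 10 cells. Genes with a mean of at least 5 CPM over both groups were compared, and past 2-fold was called. No p-value was computed, since the labels do not say that pools hold separate tumors, so each short-term model was treated as 1 sample. Cells were thinned to 3000 UMIs for the spread over cells. The steps were tested on simulated data. Near-identical or related genes (Ifit3 and Ifit3b, Ifi47 and Igtp, Ifi203, Ifi204 and Ifi205) may share reads.

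The members, their roles and the other lists were chosen with earlier results of these data known. Values were named for the 2 members with most UMIs in each role, for members past 2-fold and for the 10 genes most like the sum, except for a result that is not reported here, and further members were named after their values were seen. Alternatives changed the pseudocount, the CPM minimum, the fold, the cells, the denominator, the weighting, the members of the sum and the thinning, and left out each pool in turn. UMIs of different genes are not corrected for capture or length, so shares and ranks by UMIs describe the composition of the sum only.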

Additional observations from a re-analysis of the deposited data

Results flagged for a closer look

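In 3 of 52 cluster-experiment groups, 1 pool stood far from the others, where chance gives about 1 group in 20. The ISG sum in B.cells of long-term pool 2 was 6424 CPM (next 3869 CPM, 10 cells in that pool), in Endo.cells of short-term T22 pool 2 it was 2821 CPM (next 1552 CPM), and in i_CAF of short-term T22 pool 1 it was 1943 CPM (next 1705 CPM).

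For 6 members, all short-term T22 pools lay on one side of all T127 pools, past 2-fold, in 1 cell type and on the opposite side, past 2-fold, in another. These differences between cell types were not tested. The share of all genes that meet the same rule is not given, so the count is not read as a trait of ISGs. The log2 ratio of T22 over T127 for Ddx58 was 1.48 in malignant cells and -1.74 in CD16-CDKN1C. Gbp2 was 2.21 in Macro-MKI67 and -1.61 in Endo.cells, and Gbp3 was 2.24 in Macro-MKI67 and -1.52 in i_CAF. Ifi205, a DNA-binding protein, was 2.75 in Macro-MKI67 and -1.43 in Macro-others. Ifi27l2a was 1.70 in malignant cells and -2.08 in i_CAF, and Iigp1 was 2.27 in i_CAF and -2.14 in CD16-CDKN1C.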

How the results depend on the processing

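With the long-term pool as a replicate block, chosen after seeing the data, the T22 over T127 log2 ratio in malignant cells was -0.15 (-0.20 over all cells, -0.32 to -0.06 with 1 pool left out). For the short-term comparisons no paired analysis was possible because each pool holds 1 model. No called value changed sign. The short-term T22 over T127 log2 ratio in malignant cells (-0.73) was -1.14 without Ifi27l2a, -1.50 as the median over members, -0.43 for Malign_3 over Malign_0, -0.23 for Malign_3 over Malign_1 and -1.19 without Bst2 and Ifi27l2a, the last chosen after seeing the data. The median over members of the long-term over short-term log2 ratio was 0.25 in Malign_0 (0.89 as a sum) and 0.17 in Malign_1 (0.73). With a pseudocount of 10 CPM and with a minimum of 20 CPM, members lower in T22 numbered 4 and 5 long-term (11 in the report) and 11 and 9 short-term (20), and members higher in long-term Malign_1 numbered 4 and 4 (7). In Malign_3 that count was 6 at a minimum of 20 CPM and 18 at 1.5-fold (11). The single lower member of Malign_0 and of Malign_1 became 0 with a pseudocount of 10 CPM, without the top 5% of cells and with the mean of the cells' own CPM, and in Malign_1 0 without mitochondrial and ribosomal genes in the denominator and 2 at 1.5-fold. Leaving out 1 pool gave 0 to 1 in Malign_0 (0 without long-term pool 1 or 6 or short-term T127 pool 3) and 0 to 2 in Malign_1 (0 without long-term pool 1 or 5 or T127 pool 2 or 3, 2 without T127 pool 1). Thinned to 1500 UMIs, the variance over mean was 10.2 in long-term Malign_0, 14.4 in long-term Macro-M2, 6.61 in T127 Malign_0, 3.07 in T22 Malign_2 and 13.2 in T22 Macro-M2, fewer UMIs by construction. The cause of the other shifts was not tested. Of 73 calls past 2-fold in the malignant comparisons (a member can be called in several), 27 fell under it with a pseudocount of 10 CPM and none reversed. Leaving out long-term pools 1 and 2 and centring on all genes were also chosen after seeing the data. Genes near 5 CPM and clusters of under 100 cells are limited by counting error.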
